A study of Bos taurus with 24 samples.

Results

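Lactoferrin (gene symbol LTF, identifier ENSBTAG00000001292) is described here in mammary gland and liver of lactating cows, as 1 gene of the 24616 identifiers in the count files. It was chosen because its mammary level differed between the diets in these same libraries, so its mammary levels by diet are given as a description, without a test. For 12 weeks the cows ate a ration built on either alfalfa hay, which is dried legume forage, or corn stover, which is the maize plant without its grain. Liver and mammary gland were taken at slaughter from 6 cows per diet, giving 24 libraries. Each diet held 1 cow of parity 2 and 5 cows of parity 3, and all were late in lactation, at 228 to 254 days in milk. The age and breed of the cows are not given in the labels. Total counts ran from 22579051 to 37954234 per library. The identifiers could not be paired with other gene names, so the tissue labels were not checked against named markers.

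Lactoferrin is an iron-binding glycoprotein of the transferrin family. Mammary epithelial cells secrete it into milk, and neutrophils store it in their granules. It withholds iron from bacteria and binds bacterial surfaces. In cows its concentration in milk is known to be low at peak secretion and to climb at drying off and during mastitis, which is why its transcript is often read beside milk yield, stage of lactation and the genes of the main milk proteins.

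In mammary gland the LTF transcript stood higher in every corn stover cow than in every alfalfa hay cow, by 3.20-fold on average. Levels are normalised CPM, the depth-scaled read count of the gene after TMM scaling of the libraries within a tissue, which corrects for a few genes taking most of the reads. On alfalfa hay the lowest mammary library was at 312 CPM, the median was 539 CPM and the highest was at 961 CPM, with a mean of 598 ± 276 CPM (SD, n = 6). On corn stover the lowest was at 1187 CPM, the median 2048 CPM and the highest 2418 CPM, with a mean of 1911 ± 444 CPM (SD, n = 6). These levels come from whole tissue, where fewer cells of a type and less RNA per cell cannot be told apart.

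The cows of each diet differed among themselves. On alfalfa hay, cow 1 was lowest at 312 CPM, cow 2 stood at 358 CPM and cow 5 at 429 CPM. Cow 4 stood at 649 CPM, and the upper end was formed by cow 6 at 878 CPM and cow 3 at 961 CPM. The highest alfalfa hay library thus held 3.08 times the LTF level of the lowest. On corn stover, cow 5 was lowest at 1187 CPM and cow 1 next at 1607 CPM. The other 4 lay close together, with cow 4 at 1965 CPM, cow 2 at 2131 CPM, cow 3 at 2157 CPM and cow 6 at 2418 CPM. This order depends on the scaling, since per library total cow 1 stood at 2221 CPM and cow 4 at 1616 CPM. Over all 6 corn stover cows the SD of log2 CPM was 0.37, against 0.68 in the alfalfa hay group. The gap between the diets was small beside this spread, since the lowest corn stover cow stood 1.23-fold above the highest alfalfa hay cow.

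**Figure D1:**
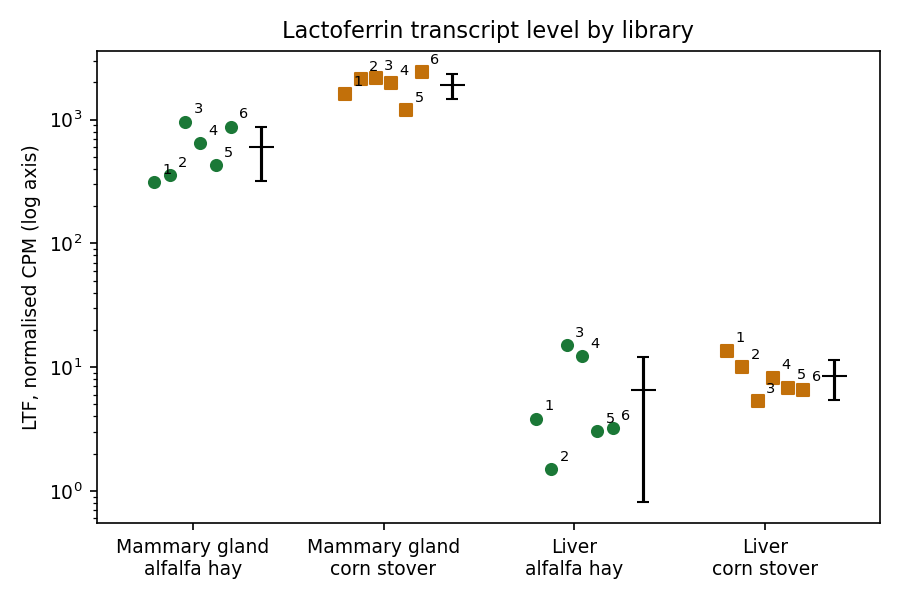
Normalised CPM of LTF on a log axis in the 24 libraries, by tissue and diet. Points are single libraries numbered by cow, and the bar beside each group is the mean with its SD. The mammary libraries lie at 312 to 961 CPM on alfalfa hay and 1187 to 2418 CPM on corn stover, and the liver libraries of both diets lie between 1.49 and 15.0 CPM.

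The fitted difference in mammary gland was 1.68 ± 0.30 on the log2 scale (SE, edgeR, corn stover minus alfalfa hay). It is the value the gene was chosen by. Among the 12027 genes tested in mammary gland, 23 had their lowest corn stover value above their highest alfalfa hay value, as LTF did, which is 0.191% of the genes. The edgeR quasi-likelihood test called no gene between the diets in mammary gland (0 of 12027, or 0%), with 784 genes at an unadjusted p below 0.05. Limma voom called 0 genes and DESeq2 called 42, which is 0.349%. The median log2 difference over all 12027 genes was 0.0014, and the median size was 0.19.

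The place of LTF among abundant mammary genes follows from the difference that chose it and is a description. Of the 12027 genes tested, 86 had a larger log2 difference towards corn stover, with mean levels of up to 1593 CPM. A mean of at least 500 CPM was reached by 54 genes. Within these 54, LTF had the 4th largest log2 difference by size. It was 1 of 2 genes whose libraries separated the diets in either direction. The 23 genes above, 0.191% of those tested, were counted with corn stover higher only. That share is therefore no like measure for these 2 genes, and their count is no result about abundant genes. By reads, which also depend on transcript length, LTF was between the 27th and the 110th gene of the library on alfalfa hay and between the 13th and the 30th on corn stover. It took 0.0591% ± 0.0306 of all reads on alfalfa hay and 0.195% ± 0.0458 on corn stover (SD, n = 6 each). These shares rest on 8647 to 73800 LTF reads per library, so counting error is small beside the differences between cows. Within a diet, the SD of log2 CPM of LTF was 0.55. Of 100 genes within 4-fold of its mean level, 70% had a smaller within-diet SD, and their median was 0.44.

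**Figure D2:**
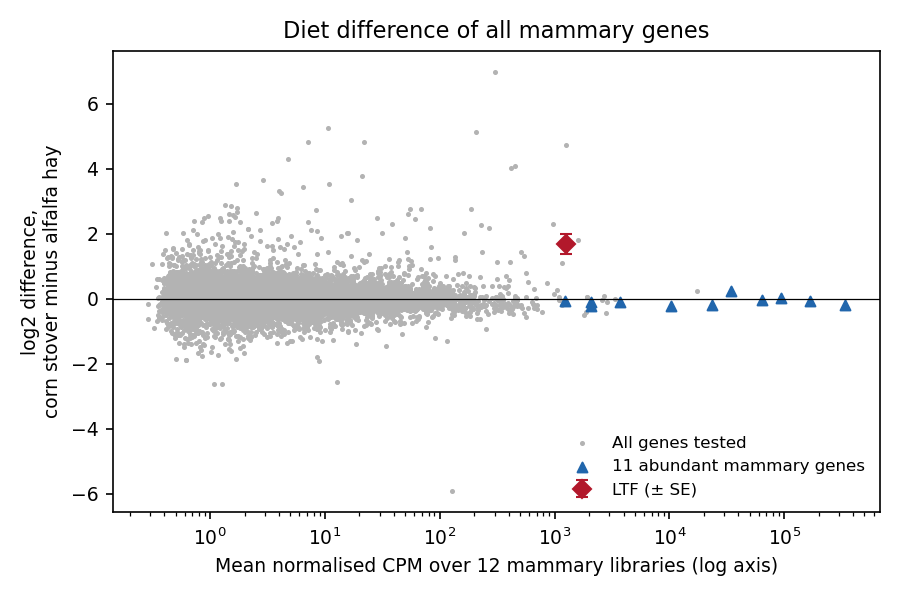
Fitted log2 difference between the diets (corn stover minus alfalfa hay) against mean normalised CPM on a log axis, for the 12027 genes tested in mammary gland. LTF is the diamond with its SE, at 1.68, and the triangles are the 11 most abundant mammary-restricted genes, which lie between -0.24 and 0.23.

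Reads typical of liver were also more frequent in the mammary libraries of corn stover cows. The 60 genes abundant in liver and nearly absent from mammary gland ranged, relative to their level in liver, from 204 to 1976 ppm in the corn stover cows (highest in cows 2, 3 and 4) and from 70.8 to 400.05 ppm in the alfalfa hay cows. LTF itself is low in liver, so reads at these shares would carry at most 0.0116 CPM of LTF into a mammary library. Without corn stover cows 2, 3 and 4, the fitted LTF difference was 1.54 ± 0.37 on the log2 scale (SE). This refit was not planned and repeats the contrast that chose the gene, so its value is a description. Whether the liver-type reads bear on the LTF difference was not tested.

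The next comparison set LTF beside milk yield. Corn stover cows gave 20.4 ± 2.03 kg per day and alfalfa hay cows 26.3 ± 2.66 kg per day (SD, n = 6 each), and the yields overlapped by 1 corn stover cow, the other 5 lying below the whole alfalfa hay group. LTF and yield thus both separate or nearly separate the diets, and a relation over all 12 cows would repeat the diet difference. It was therefore read within each diet. On alfalfa hay, log2 LTF and yield gave a Pearson r of -0.23 (exact permutation test, two-sided, p = 0.689, n = 6) and a Spearman rho of -0.31 (exact permutation p = 0.564). On corn stover r was -0.48 (exact permutation p = 0.317, n = 6) and rho -0.31 (exact permutation p = 0.564). With the mean of each diet removed, r over the 12 cows was -0.30 (permutation p = 0.390) and rho -0.31 (permutation p = 0.364). Over the 12 relations computed with yield, days in milk, intake and the milk genes, every adjusted p for r was 0.941 and every adjusted p for rho was 1.

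The sign of r with yield turned within each diet, but not with diet means removed, when cows were left out. Without the 2 cows farthest from the median yield, r was 0.40 on alfalfa hay, 0.058 on corn stover and -0.16 with diet means removed. Without alfalfa hay cow 6, r on that diet was 0.0078. With single cows left out, r on corn stover ran from -0.86 without cow 5 to -0.17 without cow 6. With diet means removed it ran from -0.55 without alfalfa hay cow 3 to -0.16 without alfalfa hay cow 6, and it was -0.12 in cows of parity 3 and -0.082 with scaling by library totals alone. Corn stover cow 6 combined the lowest yield of the study, 17.1 kg per day, with the highest LTF level, 2418 CPM. Alfalfa hay cow 3 had a high yield, 28.3 kg per day, and the highest LTF level of its diet, 961 CPM.

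A few cows of different diets had nearly the same yield. Corn stover cow 1 and alfalfa hay cow 4 both gave 23.3 kg per day. LTF stood at 1607 CPM in the former and at 649 CPM in the latter. Alfalfa hay cow 6, at 23.7 kg per day, stood at 878 CPM. Since LTF does not overlap between the diets, this order holds for any such pair and says nothing of yield. When yield was added to the fit as a covariate, the LTF diet difference was 1.29 ± 0.50 on the log2 scale (SE). Yield and diet go together in these cows, and their parts in the difference cannot be told apart.

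The alfalfa hay cows were at 239 ± 6.44 days in milk and the corn stover cows at 248 ± 10.2 (SD, n = 6 each). Within alfalfa hay, LTF and days in milk gave r = 0.12 (exact permutation p = 0.764, n = 6) and rho = 0.26 (exact permutation p = 0.658). Without the 2 cows farthest from the median, r was 0.11. It was -0.38 without cow 1 and -0.18 without cow 3.

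On corn stover the relation turned on a single cow. Over the 6 cows r was -0.20 (exact permutation p = 0.719) and rho -0.058 (exact permutation p = 0.933). Cow 6 was at 228 days, far from the others at 245 to 254, and had the highest LTF. Without it r was 0.94 over 5 cows (exact permutation p = 0.05, adjusted over the 12 relations 0.60). Of these, cow 5 was at 245 days and had the lowest LTF of its diet. Without the 2 cows farthest from the median, cows 5 and 6, r was 0.74 (exact permutation p = 0.25). The 4 cows left were at 252 to 254 days, a range too narrow to show a relation. With diet means removed, r over the 12 cows was -0.022 (permutation p = 0.941), and 0.29 without corn stover cow 6.

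Cows of different diets can also be set side by side at like stages of lactation, with the same limit. Alfalfa hay cow 3 and corn stover cow 5 were both at 245 days, with LTF at 961 and 1187 CPM. Earlier in lactation, corn stover cow 6 at 228 days stood at 2418 CPM, while alfalfa hay cow 1 at 231 days stood at 312 CPM and cow 6 at 232 days at 878 CPM. The lowest and the highest mammary LTF of the study thus came from cows 3 days apart in lactation. With days in milk as a covariate, the fitted diet difference was 1.70 ± 0.33 on the log2 scale (SE).

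**Figure D3:**
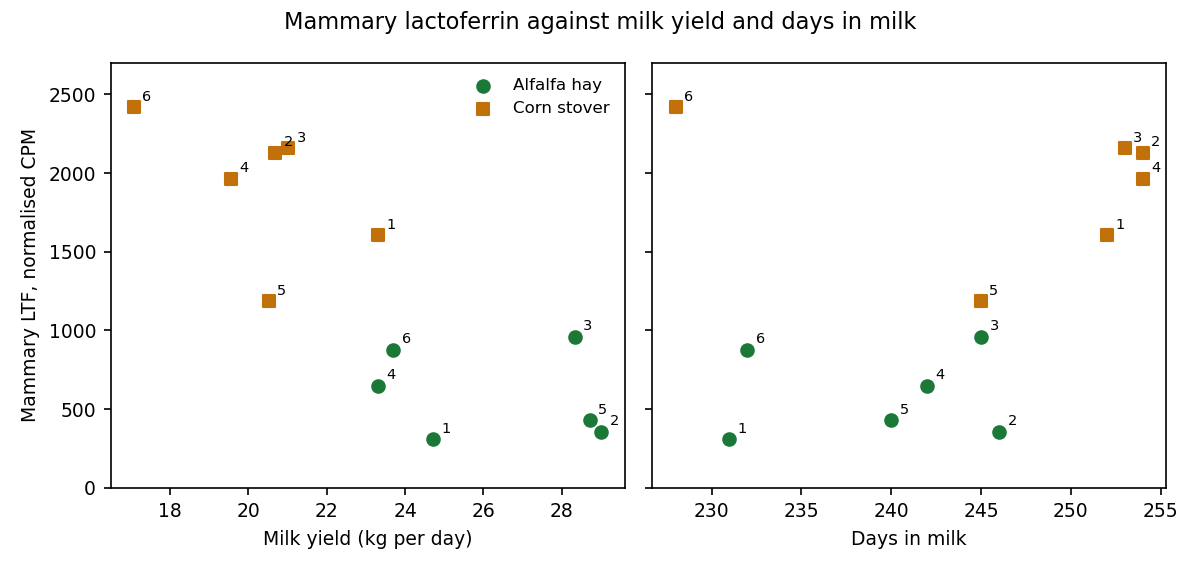
Mammary LTF in normalised CPM against milk yield in kg per day (left) and days in milk (right). Each point is a cow, numbered within its diet. Corn stover cow 1 and alfalfa hay cow 4 share a yield of 23.3 kg per day at 1607 and 649 CPM, and corn stover cow 6 stands alone at 228 days with 2418 CPM.

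Dry matter intake gave no relation with LTF that passed the threshold. Within alfalfa hay r was 0.11 (exact permutation p = 0.840, n = 6), and within corn stover -0.10 (exact permutation p = 0.831, n = 6). With diet means removed, r was -0.020 (permutation p = 0.935) and rho 0.029 (permutation p = 0.964). Without the 2 cows of farthest intake, r was -0.93 on alfalfa hay over 4 cows, 0.46 on corn stover and 0.19 with diet means removed, so neither the sign nor the size held.

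LTF was then set beside the main products of the secreting gland. Caseins, alpha-lactalbumin and beta-lactoglobulin are the chief milk proteins, but the files name no genes. The measure used was the summed level of 11 genes, LTF not among them, whose mammary median reached 1000 CPM and was 1000 or more times their liver median. These 11 genes took 73.8% ± 3.72 of mammary reads on alfalfa hay and 71.6% ± 4.94 on corn stover (SD, n = 6 each), ranging from 62.0% in corn stover cow 1 to 79.1% in alfalfa hay cow 4. Their summed normalised level differed by -0.10 on the log2 scale (corn stover minus alfalfa hay; exact permutation test over 924 assignments, two-sided, p = 0.617). This difference was smaller than the spread between cows, since the log2 sum had an SD of 0.34 (alfalfa hay) and 0.35 (corn stover). For the log2 percentage of reads the SD values were 0.072 and 0.10. The spread of the sum thus depends on the scaling and is no measure of secretion. The sign turned without alfalfa hay cow 4 (0.0070) or without corn stover cow 1 (0.025), whose scaling factors were 0.717 and 1.38. Scaled by library totals alone, the difference was -0.047 (exact permutation p = 0.435).

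The edgeR quasi-likelihood test called 0 of the 11 genes between the diets (smallest adjusted p = 0.929), as it called 0% of all mammary genes tested, so this count is no result about these genes. Fitted values were higher on corn stover for 2 and lower for 9, with a median log2 difference of -0.10 and a range from -0.24 to 0.23. Over all mammary genes tested the median was 0.0014. The sum includes the genes that take most reads of a library, so LTF and the sum share the same total, and each read counted for one is absent from the other.

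Relative to these genes, LTF gave 0.802 ± 0.417 reads per 1000 of their reads on alfalfa hay and 2.75 ± 0.739 on corn stover (SD, n = 6 each), a ratio of 3.43 between the means. On alfalfa hay, cows 1, 2, 4 and 5 lay between 0.477 and 0.588 reads per 1000, while cow 6 reached 1.23 and cow 3 reached 1.43. On corn stover, cow 5 was lowest at 1.68 and cow 1 highest at 3.58. The groups did not overlap in this ratio, which needs no scaling between libraries. The ratio repeats the diet difference that chose the gene, so the gap is a description.

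**Figure D4:**
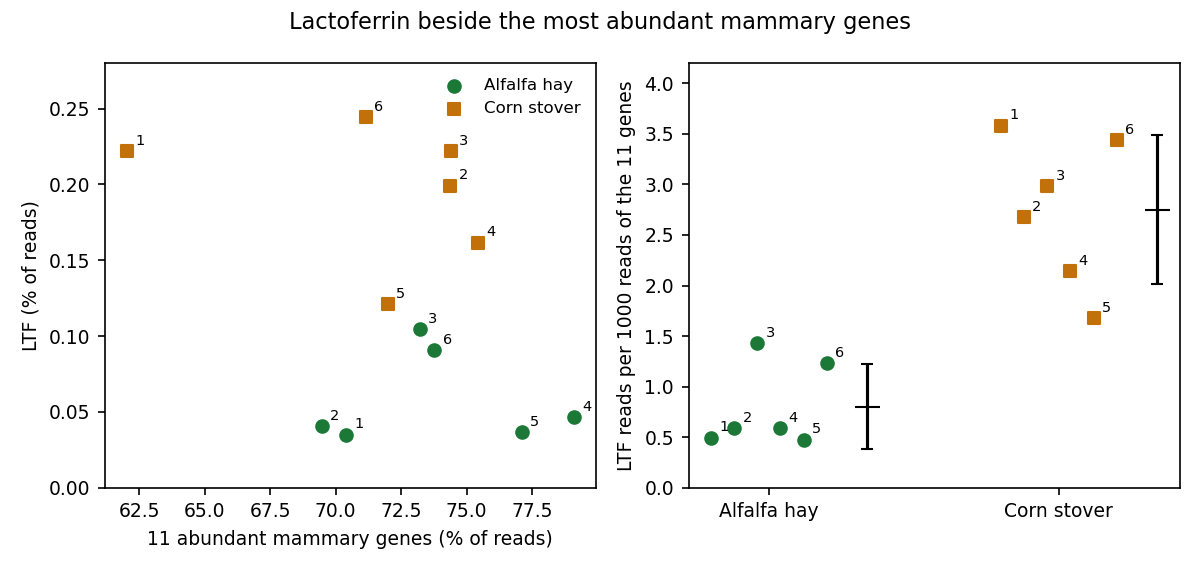
Left, LTF as a percentage of all reads against the percentage taken by the 11 abundant mammary-restricted genes, one point per mammary library. Right, LTF reads per 1000 reads of these 11 genes with the mean and SD per diet, at 0.802 on alfalfa hay and 2.75 on corn stover. The percentage of the 11 genes overlaps between the diets. That of LTF does not, which follows from the difference the gene was chosen by. Of the mammary genes tested, 0.191% had every corn stover value above every alfalfa hay value.

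Within a diet, the relation of LTF to the 11 genes was positive in sign after TMM scaling and did not pass the threshold. LTF and the sum of a library were divided by the same scaling factor, which by itself moves r upward. The sign is therefore no result about secretion. On alfalfa hay r between log2 LTF and the log2 sum was 0.23 (exact permutation p = 0.650, n = 6) and rho 0.43 (exact permutation p = 0.419). On corn stover r was 0.32 (exact permutation p = 0.511, n = 6) and rho 0.086 (exact permutation p = 0.919). With diet means removed r was 0.25 (permutation p = 0.459) and rho 0.26 (permutation p = 0.460). Without the 2 cows farthest from the median of the sum, r was 0.88, 0.28 and 0.14 in that order. None of these passed the threshold, and scaling by library totals alone turned the sign to -0.29 on corn stover and -0.094 with diet means removed.

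Taken singly with diet means removed, the 11 genes gave r with LTF from -0.55 to 0.62, negative in 3. The smallest of the 11 permutation p-values adjusted over these genes was 0.404 for r and 0.934 for rho. The largest r belonged to ENSBTAG00000005260, at 0.62 (permutation p = 0.0368) with a rho of 0.43 (permutation p = 0.203), and it was 0.60 without the 2 cows farthest from the median. This gene was picked after its value was seen. Here too LTF and each gene were divided by the same scaling factor, so the sign of r is no result about secretion.

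Genes that followed LTF from cow to cow were sought over the 12 mammary libraries among 10736 other genes with a mean of at least 1 CPM, by Pearson r of log2(CPM + 1). These are the extremes of many values and are given as a description. The scaling factor shared by LTF and each gene enters these values as well. With diet means removed, the 5 highest lay between 0.84 and 0.92 and the 5 lowest between -0.90 and -0.88. ENSBTAG00000000315 was highest at 0.92, with 5.76 ± 2.21 CPM in alfalfa hay cows and 6.03 ± 1.28 CPM in corn stover cows (SD, n = 6 each). ENSBTAG00000003743 was next at 0.86. At the other end ENSBTAG00000037452 was at -0.90 and ENSBTAG00000016014 at -0.89. None of these 4 genes passed the threshold between the diets (edgeR adjusted p from 0.929 to 0.991). The same test called 0 of all 12027 mammary genes (0%), so this is no result about these genes. With the diet difference kept in, the 5 highest values of r lay between 0.84 and 0.86 and the 5 lowest between -0.94 and -0.84.

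In liver LTF was a gene of low level in both diets. The 6 alfalfa hay livers held 41 to 445 LTF reads and the 6 corn stover livers 192 to 314. On alfalfa hay the lowest liver was at 1.49 CPM, the median 3.53 CPM and the highest 15.0 CPM, with a mean of 6.48 ± 5.66 CPM (SD, n = 6). On corn stover the lowest was at 5.30 CPM, the median 7.52 CPM and the highest 13.6 CPM, with a mean of 8.43 ± 3.01 CPM (SD, n = 6). The diets overlapped, whereas 0.0387% of the liver genes tested had every corn stover value above every alfalfa hay value. All 6 corn stover livers lay above the alfalfa hay median, and 4 of the 6 alfalfa hay livers lay below the lowest corn stover liver. Above the highest alfalfa hay liver lay 0 corn stover livers. How many other liver genes meet these rules was not counted, so the counts are a description and no result about diet.

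The alfalfa hay livers fell far apart. Cow 2 stood at 1.49 CPM, cow 5 at 3.05 CPM, cow 6 at 3.22 CPM and cow 1 at 3.84 CPM. Cow 4 stood at 12.2 CPM and cow 3 at 15.0 CPM. Counting error does not cover this range. Per library total, the lowest liver was at 1.47 CPM with a 95% exact binomial interval from 1.05 to 1.99 CPM, and the highest at 15.4 CPM with an interval from 14.01 to 16.9 CPM. Such intervals cover counting error only.

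The liver test did not find a diet difference for LTF. The log2 difference was 0.37 ± 0.47 (SE, corn stover minus alfalfa hay). The edgeR quasi-likelihood p was 0.443 unadjusted and 0.99998 adjusted over 12929 genes. No gene of 12929 was called in liver (0%) by this test, with 354 at an unadjusted p below 0.05. Limma voom called 0 genes and DESeq2 called 3. The LTF value was 0.82 without alfalfa hay cow 3, 0.66 without alfalfa hay cow 4 and 0.17 without alfalfa hay cow 2. It was -0.014 in cows of parity 3 alone, 0.73 by limma voom and 0.12 with days in milk as a covariate. Without cow 1 of both diets, whose liver libraries stood apart in their scaling, it was 0.075. With an SE of 0.47 and adjustment over 12929 genes, the test could miss differences well above 0.47 at this spread between cows. The absence of a call therefore excludes no difference of moderate size.

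Reads typical of mammary gland were present in liver and differed between the diets. Relative to mammary gland, the summed level of the 11 mammary-restricted genes was 1.45 to 38.9 ppm in corn stover livers and 5.35 ppm in alfalfa hay liver 6, but 147 to 296 ppm in the other 5 alfalfa hay livers. Reads at these shares would carry 0.0029 to 0.234 CPM of LTF into a liver library, given the mammary LTF of the same cow. The liver libraries themselves held at least 1.47 CPM of LTF per library total, more than this amount in each cow. Those 5 livers differ from the remaining 7 in another way, since the header of their counts begins with a tissue letter. With the kind of header as a term, the LTF diet difference in liver was 1.38 ± 0.98 on the log2 scale (SE; edgeR adjusted p = 0.9996), a value for which alfalfa hay liver 6 alone stands for its diet.

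**Figure D5:**
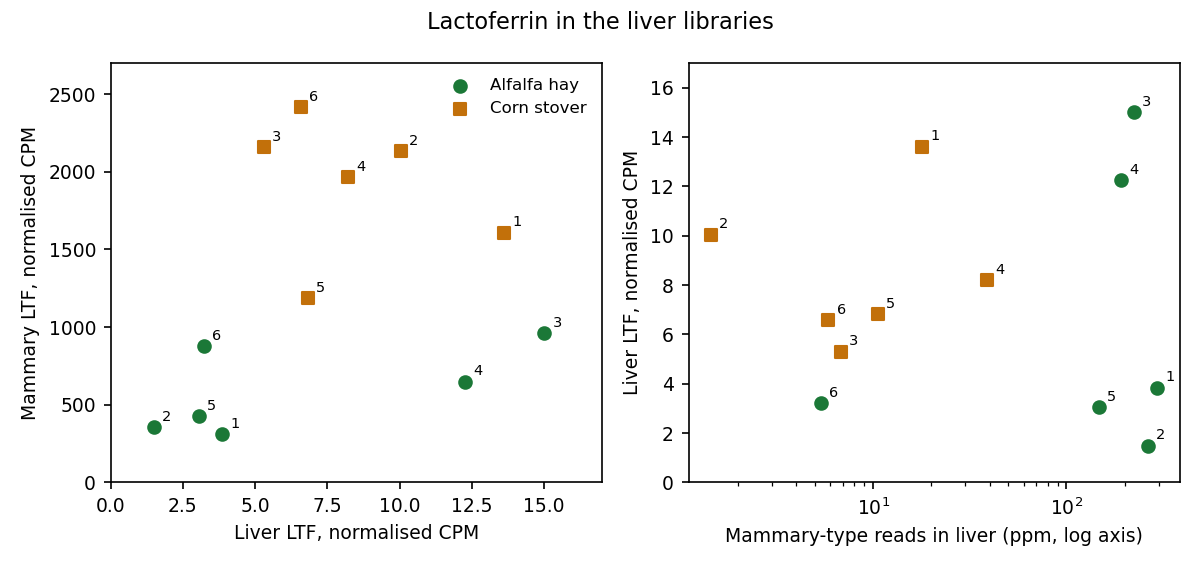
Left, mammary against liver LTF of the same cow in normalised CPM. Right, liver LTF against the level of mammary-type reads in the same liver library, in ppm of their mammary level on a log axis. Alfalfa hay cows 3 and 4 have the highest liver LTF of their diet, at 15.0 and 12.2 CPM, and the other alfalfa hay livers with mammary-type reads above 100 ppm stand at 1.49 to 3.84 CPM.

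Mammary gland exceeded liver in LTF in all 12 cows. Per library total, the ratio of mammary to liver LTF in the same cow ran from 35.99 in alfalfa hay cow 4 to 279 in alfalfa hay cow 2, with a median of 122. On corn stover it ran from 161 in cow 5 to 376 in cow 3, with a median of 202. The fit over all 24 libraries gave a tissue difference of 8.16 ± 0.41 on the log2 scale (SE), and 7.18 with scaling by library totals alone. Of the 13760 genes tested, 33.5% were higher in mammary gland by the edgeR test, which did not pair the tissues of a cow. In that fit 99.1% had a smaller log2 difference in favour of mammary gland than LTF. The difference between the diet effects of the tissues, mammary minus liver, was 1.28 ± 0.61 on the log2 scale (SE). It contains the contrast that chose the gene and is given without a test.

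LTF in the gland and in the liver of the same cow showed no relation that passed the threshold. On alfalfa hay r between log2 mammary and log2 liver LTF was 0.64 (exact permutation p = 0.206, n = 6) and rho 0.54 (exact permutation p = 0.297). On corn stover r was -0.20 (exact permutation p = 0.699, n = 6) and rho -0.54 (exact permutation p = 0.297). With diet means removed r was 0.48 (permutation p = 0.243) and rho 0 (permutation p = 1). Adjusted over these 3 relations, the p-values for r were 0.365 on alfalfa hay, 0.699 on corn stover and 0.365 with diet means removed, and those for rho were 0.446, 0.446 and 1. Without the 2 cows of most distant liver level r was 0.19, 0.29 and 0.18 in that order. Alfalfa hay cow 3 was highest of its diet in both tissues. Corn stover cow 6, highest in mammary gland, stood at 6.59 CPM in liver, below the median of its group.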

How the data were processed

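Raw counts of reads per Ensembl bovine identifier were deposited, 1 file per library. Per the submitters' processing notes, the authors used TopHat2 2.0.9, SAMtools 1.1, HTSeq 0.6.1 and the build UMD3.1; for annotation release, strand setting and filters, not given in the sources used here, no value can be stated, and reads shared with overlapping or antisense genes cannot be traced. The gene table at hand matched 0 of the 24616 identifiers. Lists planned by symbol (milk and antimicrobial proteins, iron handling, receptors, involution, cell type markers) could therefore not be applied, no sequence or position is given, and the symbol LTF is that of the selected identifier. The gene, lists and rules were chosen with earlier results of these data known.

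Diet was fitted within each tissue with edgeR 4.0.16 in R 4.3.3 (filterByExpr, minimum count 10, minimum total 15; TMM; quasi-likelihood test; Benjamini-Hochberg, threshold 0.05). The SE is the log2 change over the square root of F. Tissue and interaction used 4 group means over 24 libraries. Normalised CPM relates a count to library total times TMM factor. Relations used log2(CPM + 1), exact permutation of 6 cows or 100000 permutations within diets. Genes were named by identifier under the rule of the most similar patterns, at most 2 in each direction, and ENSBTAG00000005260 was added after its value was seen. Alternatives included RLE and total scaling, other filters, DESeq2 1.42.0, limma 3.58.1 voom, covariates, parity 3 cows, blocks and each library left out. The scripts were tested on simulated data.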

Additional observations from a re-analysis of the deposited data

Results flagged for a closer look

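In 26 groups of 6 values, the highest or lowest value was checked for a wide gap to its nearest neighbour. Such a value was held by 6 groups, where chance gives about 1.3 if groups are independent. Many of these groups are measures of the same libraries and cows, so the excess is no test. None of them was an LTF level or an LTF ratio. Corn stover cow 6 was at 228 days in milk, against 245 days for the next cow of its diet, and had the highest mammary LTF. In mammary gland, alfalfa hay cow 4 had the deepest library, at 37954234 counts against 24714024 for the next, and was also highest of its diet in liver-type reads, at 400.05 against 173 ppm. The scaling factor of liver cow 1 was low in both diets, at 0.6999 for alfalfa hay and 0.778 for corn stover. In mammary gland corn stover cow 1 had a scaling factor of 1.38, against 1.03 for the next. Its LTF was 1607 CPM after scaling and 2221 CPM per library total.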

How the results depend on the processing

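The mammary LTF difference stayed between 1.29 and 1.87 on the log2 scale over all alternatives, 1.55 to 1.87 with single libraries left out, and the diets did not overlap under any of 3 scalings. The interaction ran from 1.02 to 1.56 and the tissue difference from 8.02 to 8.29 with single cows left out, and the latter was 7.18 with library totals alone. The liver difference ran from 0.17 to 0.82 with single libraries left out and reversed to -0.014 in parity 3 cows; it was 0.73 with limma voom, 0.12 with days in milk and 0.50 with yield as a covariate. The mammary count of called genes was 0 with edgeR and 42 with DESeq2, and the liver count was 3 with DESeq2 and 3 in the fit over all 24 libraries; with single libraries left out both stayed at 0. Of 308 alternative values, 270 kept direction and side of the threshold, or moved within the replicate spread, while 33 reversed and 5 moved. Except where stated, the cause was not tested.

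Same numbers in the diets name different cows. Deviations of same-numbered libraries correlated at -0.27 to 0.30 in mammary gland and 0.064 to 0.62 in liver, and not every library was closest to its own number. With the replicate number as a block, 12 mammary genes were called and the LTF difference was 1.77; in liver it was 0.77 (edgeR adjusted p = 0.850) with 0 genes called. With the cow as a block the tissue difference was 8.33 and the interaction 0.99.

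None of the 12 relations of LTF passed the threshold under any alternative, nor did the summed level of the 11 genes. Settings that left 4 or 5 cows of a diet could hardly pass it, because few pairings exist. With intake over 4 alfalfa hay cows, r of -0.93 had an exact permutation p of 0.0417, adjusted 0.50. With days in milk over 5 corn stover cows, r of 0.94 had an exact permutation p of 0.05, adjusted 0.60. With single cows left out, r with yield ran from -0.60 to 0.0078 on alfalfa hay, from -0.86 to -0.17 on corn stover and from -0.55 to -0.16 with diet means removed, with days in milk from -0.38 to 0.55 on alfalfa hay, from -0.59 to 0.94 on corn stover and from -0.24 to 0.29 with diet means removed, and with intake from -0.38 to 0.36, from -0.29 to 0.070 and from -0.13 to 0.064 in the same order. The summed level of the 11 genes ran from -0.18 to 0.025 on the log2 scale. Without the 2 cows farthest from the median, r reversed to 0.40 (yield, alfalfa hay), 0.058 (yield, corn stover), 0.74 (days in milk, corn stover), -0.93 (intake, alfalfa hay), 0.46 (intake, corn stover) and 0.19 (intake, diet means removed). With library totals alone, r reversed to 0.46 (intake, corn stover), 0.28 (intake, diet means removed), -0.29 and -0.094 (summed level, corn stover and diet means removed). In parity 3 cows r reversed to 0.070 (intake, corn stover), 0.12 (days in milk, diet means removed) and 0.095 (intake, diet means removed), and without the most abundant genes in the totals to 0.021 (intake, diet means removed). With 6 cows per diet, moderate relations were not detectable.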
